A study of Mus musculus with 6 samples.

Results

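Odorant receptors (ORs) numbered Olfr338 to Olfr370 and Olfr1275 to Olfr1317 were examined, 2 stretches of receptor genes that flank the large central OR cluster of mouse chromosome 2. Members were taken by name alone, as every gene called Olfr with a whole number in either range and no pseudogene suffix, and the rule uses no expression value. The rule found 62 genes among 24661 in the files, 26 in the first range (called proximal here) and 36 in the second (distal). In the mouse genome GRCm38 with GENCODE M21, 61 of them lie on chromosome 2, the proximal ones at chr2:36373519-37332772 and the distal ones at chr2:111230360-112144054. The exception is Olfr370, which GENCODE and RefSeq place on chromosome 8 at chr8:83535780-83545227, plus strand. It is kept as a member by its number and is not a chromosome 2 receptor. Olfr1285 is annotated as a transcribed pseudogene, so it was not counted among the 1086 intact ORs, and 61 members were tested on the OR scale described below.

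RNA-Seq had been run on whole olfactory mucosa, labelled olfactory epithelium, of C57BL/6 mice aged 21 days, 3 wild-type and 3 RTP1,2DKO, with a library per mouse. In RTP1,2DKO mice the coding regions of Rtp1 and Rtp2 are replaced, by loxP and by a puromycin cassette, in the germline and so in all cells. The alleles were made in 129/B6 hybrid embryonic stem cells, and the mice of both genotypes were sex-matched littermates (2 males and 1 female each). Libraries held 31125410 to 41636996 estimated counts, of which 6649 to 9376 fell on the 62 members, with a median of 58.4 to 87.3 counts per member. The tissue is a mixture of cells, so fewer neurons expressing a receptor and less RNA per neuron cannot be told apart.

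Each olfactory sensory neuron (OSN) settles on a single OR gene out of the whole family and transcribes it from a single allele. The chosen receptor is a G protein-coupled receptor that must leave the endoplasmic reticulum and reach the cilia, and RTP1 and RTP2 are transmembrane accessory proteins that promote this transport for many ORs. OR genes sit in tandem clusters made by local duplication, so neighbours are often close paralogs, and a receptor's RNA level in whole mucosa follows largely how many OSNs chose it.

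The coding sequences of 3 pairs of paralogs are shown to give how alike such receptors are, since their values are compared below. Capitals mark the bases at which the 2 sequences of a pair differ, and each window is the first stretch of 90 bases in which the pair aligned without a gap (GENCODE M21, GRCm38, 5′ to 3′ on the coding strand). Olfr1282 (chr2:111335987-111336076, minus strand) and Olfr1286 (chr2:111420860-111420949, minus strand) were the most alike of all member pairs, with 97.5% coding identity and 4 differences in the window.
Olfr1282: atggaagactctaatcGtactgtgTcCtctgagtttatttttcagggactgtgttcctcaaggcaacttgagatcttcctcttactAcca
Olfr1286: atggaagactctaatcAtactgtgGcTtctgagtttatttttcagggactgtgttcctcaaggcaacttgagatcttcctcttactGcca
Olfr339 (chr2:36421467-36421556, plus strand) and Olfr346 (chr2:36688071-36688160, plus strand) had 92.6% identity and again 4 differences in the window.
Olfr339: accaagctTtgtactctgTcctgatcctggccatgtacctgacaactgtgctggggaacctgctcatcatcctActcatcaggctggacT
Olfr346: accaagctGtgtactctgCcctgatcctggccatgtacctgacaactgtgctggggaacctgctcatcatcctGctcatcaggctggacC
Olfr1299 (chr2:111664306-111664395, plus strand) and Olfr1302 (chr2:111780400-111780489, plus strand) had 86.4% identity and 10 differences in the window, and were the most alike pair to be called in opposite directions on the OR scale.
Olfr1299: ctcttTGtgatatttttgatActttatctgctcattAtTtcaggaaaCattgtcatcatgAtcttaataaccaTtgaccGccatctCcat
Olfr1302: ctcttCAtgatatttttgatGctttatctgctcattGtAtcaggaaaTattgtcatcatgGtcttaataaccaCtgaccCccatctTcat

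The knockout was visible in every library. Values are given as normalised counts, which are estimated counts divided by a library's size factor over all genes, in the order of mice 1 to 3. Rtp1 had 20522, 25301 and 13543 normalised counts in the wild-type mice and 90.6, 85.5 and 109 in the RTP1,2DKO mice, and Rtp2 had 7157 to 9511 against 26.2 to 58.0. Of 11 transduction genes, 8 fell (edgeR's quasi-likelihood test, adjusted p under 0.05 over all genes). Among these were Adcy3, the cyclase that makes cAMP in OSN cilia (log2 fold change −1.41 ± 0.13 SE), and Cnga2, a subunit of the cAMP-gated channel (−1.05 ± 0.14). Reep1, a receptor transport protein, fell by 0.78 on the log2 scale, while the other 3 transport genes and all 12 genes of OR choice, such as Lhx2, Ldb1, Ebf1 and Atf5, did not pass. With the replicate number as a block, Gnb1 and Gng13 also passed (adjusted p = 0.0357 and 0.0288). Of 6 mature OSN markers 5 fell, and their summed level was 149903 to 173876 in wild-type and 76147 to 82821 in RTP1,2DKO mice. All of these markers but Omp (−0.90 ± 0.15) are also among the 11 transduction genes, so the counts of the 2 lists are not independent. Of 5 immature neuron markers 2 rose, Gap43 (0.58 ± 0.14) and Gng8 (0.91 ± 0.18), and their summed level was 17923 to 22998 against 26300 to 28753. With the block Stmn1 and Dpysl3 rose as well (adjusted p = 0.0293 and 0.0497), as did Top2a among 5 progenitor markers (0.0154). Of the markers of 7 other cell types, 1 red blood cell gene, Hbb-bt, passed (0.88 ± 0.22, adjusted p = 0.0485, and 0.0506 with the block), and no marker in any list was at 0 in all mice. How far the shift from mature to immature neurons enters the receptor values below was not tested.

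Member levels were first read on the all-gene scale, in which libraries are scaled by size factors over all genes. On this scale 10 members fell in RTP1,2DKO mice and 4 rose, out of 62 tested, at adjusted p under 0.05 over all genes. Of the 1078 intact ORs with a count, 38.3% fell and 4.36% rose, so the members fell in a smaller share (16.1%) and rose in a similar one (6.45%). Over all 22152 genes tested, 3.15% fell and 0.46% rose. The median log2 fold change was −0.44 over the members and −1.08 over the intact ORs. It was −0.75 for the proximal numbers and −0.24 for the distal ones. No test of these list values was made.

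In wild-type level per length, the 4 members that rose ran from the middle of the members (Olfr1303) to near the top (Olfr370). Olfr1297 (chr2:111615233-111626497, minus strand) had 415, 606 and 386 normalised counts in wild-type and 844, 1006 and 817 in RTP1,2DKO mice. The lowest RTP1,2DKO mouse exceeded the highest wild-type mouse, and the log2 fold change was 0.92 ± 0.18 (SE, adjusted p = 0.00957). Olfr370, the receptor on chromosome 8, had 491, 554 and 438 counts against 893, 934 and 819. The groups did not overlap, and it rose by 0.83 ± 0.14 (adjusted p = 0.00363). Olfr1303 (chr2:111812247-111820340, minus strand) had 161, 152 and 169 counts against 277, 273 and 276, with very little spread within either group. Its rise was 0.78 ± 0.17 (adjusted p = 0.0223). Olfr339 had 252, 279 and 181 counts against 418, 378 and 421, a rise of 0.77 ± 0.18 (adjusted p = 0.035). The rises of Olfr1297 and Olfr370 passed in all 6 fits that left out 1 mouse. Those of Olfr1303 and Olfr339 passed in 2 and 1 of the 6, and kept their direction in all 6.

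The 10 members that fell were Olfr346, Olfr357, Olfr358 and Olfr360 among the proximal numbers and Olfr1290, Olfr1294, Olfr1302, Olfr1309, Olfr1311 and Olfr1316 among the distal ones. Olfr1302 fell most of these. It had 65.7, 166 and 90.1 counts in wild-type and 13.7, 15.1 and 18.6 in RTP1,2DKO mice, a log2 fold change of −2.76 ± 0.41 (adjusted p = 0.00161). Olfr1290 (chr2:111487528-111493829, minus strand) had 143, 326 and 212 counts against 48.9, 29.9 and 51.8, a change of −2.39 ± 0.33 (adjusted p = 0.00102). Olfr358 (chr2:37002163-37009335, minus strand) had 162, 222 and 219 counts against 47.6, 47.9 and 20.6, a change of −2.37 ± 0.32 (adjusted p = 0.0008). In each of these 3 receptors the highest RTP1,2DKO mouse stayed below the lowest wild-type mouse. The other 7 fell by 1.03 to 1.66 on the log2 scale. Olfr360, with 102, 75.7 and 81.9 counts against 40.1, 23.6 and 38.3, passed in 0 of the 6 fits that left out 1 mouse, although the groups did not overlap.

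**Figure D1:**
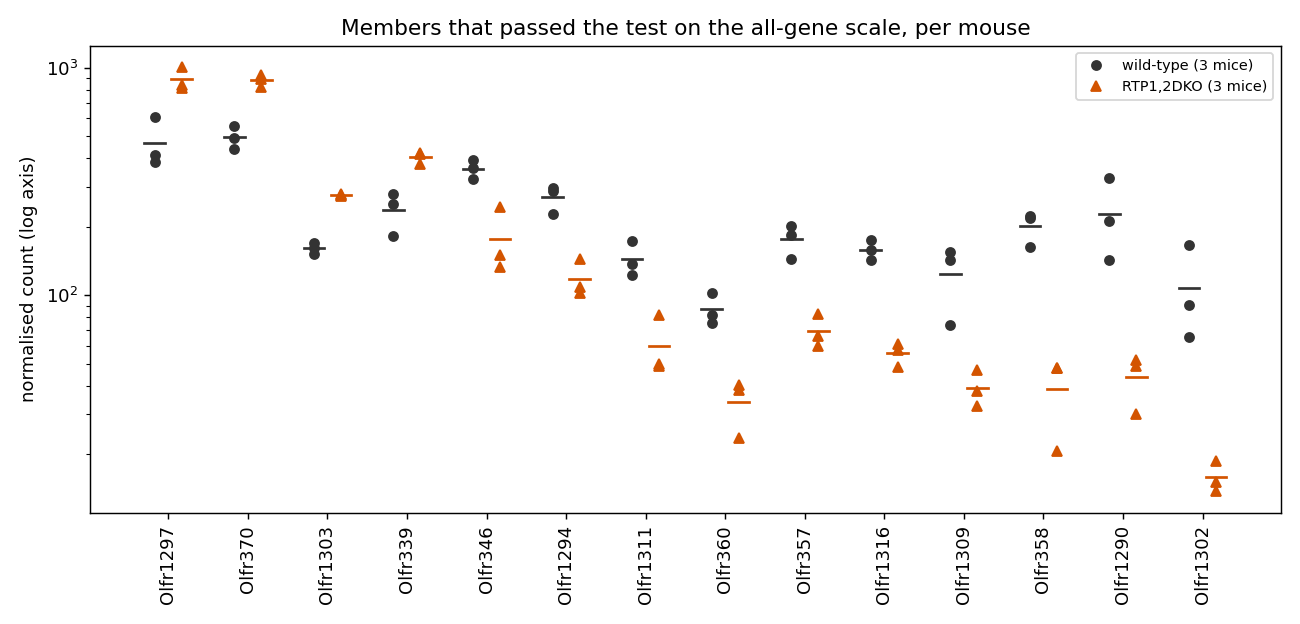
Normalised count per mouse (log axis, all-gene scale) for the 14 members that passed the test on that scale, ordered by fold change. Circles are the 3 wild-type and triangles the 3 RTP1,2DKO mice, and bars are group means. In the 4 receptors on the left the triangles lie above the circles, and in the other 10 they lie below them with no overlap.

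ORs were then set against each other on the OR scale, in which size factors and p-value adjustment use the intact ORs alone, so that a value of 0 means a change equal to that of the typical OR. On this scale an OR that passes is called overrepresented (oOR) or underrepresented (uOR) here. The authors use the same terms for their own calls, scaled by the reads on intact ORs. They reported more under- than overrepresented ORs, so their sets are not the ones given here. Of the 61 members tested, 25 were oORs and 3 were uORs. Among all intact ORs 29.1% were oORs and 25.9% were uORs, against 41.0% and 4.92% of the members. The median log2 fold change was 0.47 over the members and −0.11 over the intact ORs. The proximal numbers held 9 oORs and 1 uOR among 26, and the distal ones held 16 oORs and 2 uORs among 35. Of the intact ORs numbered between the 2 ranges, Olfr987 to Olfr1140 held 27.9% oORs and 34.6% uORs, and Olfr1141 to Olfr1274 held 23.2% and 26.3%. No test of these shares was made.

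The split between oORs and uORs depends on what stands for the typical OR. With the summed intact OR count of a library as its size factor, the median of all intact ORs moved by −0.78 on the log2 scale, and 16 members were oORs and 18 were uORs. Of the 25 oORs, 16 kept that call. Among all intact ORs the shares were then 16.4% and 47.9%. With the 3 most abundant ORs left out of that sum, 20 members were oORs and 15 were uORs. With the replicate number as a block there were 25 oORs and 5 uORs, the added uORs being Olfr348 (adjusted p = 0.04997) and Olfr350 (adjusted p = 0.0478). Of the 25 oORs and 3 uORs, Olfr342 and Olfr1305 changed direction under these scalings, to −0.13 and −0.0679 with the summed count, and the other 26 kept theirs.

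**Figure D2:**
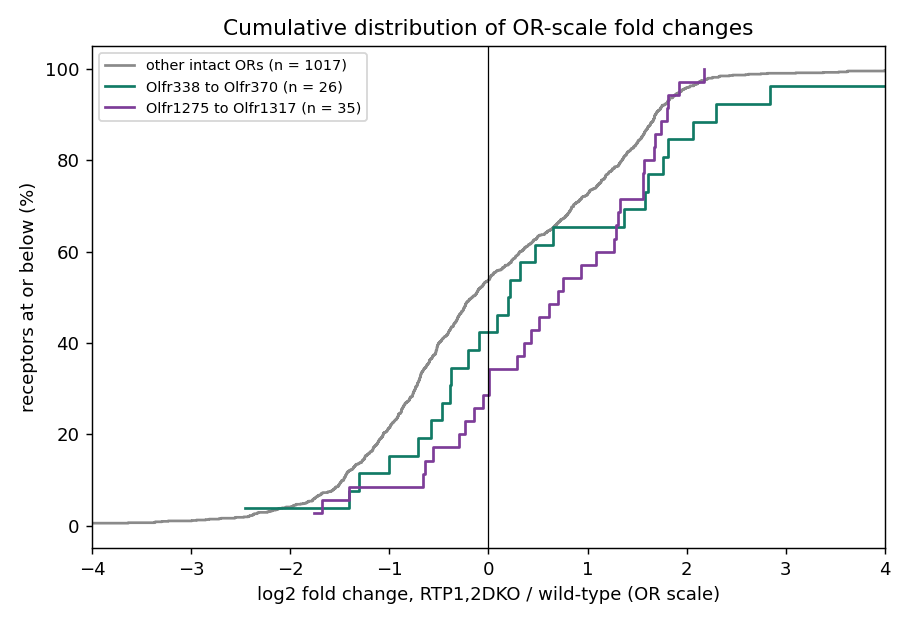
Cumulative share of receptors (%) by log2 fold change on the OR scale, for the 26 proximal numbers, the 35 tested distal numbers and the 1017 other intact ORs. The axis is limited to −4 to 4, which leaves out Olfr340 and the most extreme other ORs, and the curves of both member ranges lie to the right of the other ORs around 0.

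Among the proximal receptors, the largest oOR values with at least 10 counts on average belonged to Olfr353 and Olfr351, a pair with 90.1% coding identity that lies on either side of the uncalled Olfr352 (0.085 ± 0.72). Olfr353 (chr2:36887293-36892936, minus strand) had 18.6, 30.5 and 36.4 normalised counts in wild-type and 74.8, 88.1 and 52.9 in RTP1,2DKO mice, and its OR-scale log2 fold change was 2.30 ± 0.36 (adjusted p = 2.99e-07). Olfr351 (chr2:36857539-36862660, minus strand) had 77.6, 140 and 66.2 counts against 218, 169 and 211, a change of 2.07 ± 0.26 (adjusted p = 5.83e-09). On the all-gene scale too the groups of both did not overlap, and their adjusted p-values were 0.0827 and 0.0615. With the block the rise of Olfr351 passed there as well (adjusted p = 0.0395).

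The last numbers of the proximal range had similar values. Olfr365, Olfr366, Olfr368 and Olfr370 were all oORs, with values of 1.37 to 1.81, while none of the 8 receptors from Olfr354 to Olfr362 was an oOR and 1, Olfr358, was a uOR (−1.41 ± 0.29, adjusted p = 5.69e-05). These stretches of numbers were set after the values were seen, and no test was made between them. On the all-gene scale, without the replicate block, 1 of the 4 passed, Olfr370 on chromosome 8. Olfr365 was the most abundant member by count. It had 769, 777 and 625 normalised counts in wild-type and 1383, 923 and 1038 in RTP1,2DKO mice, an OR-scale change of 1.58 ± 0.22 (adjusted p = 3.85e-08). On the all-gene scale its adjusted p was 0.0605, and 0.0293 with the block. Olfr366 had 89.2, 80.9 and 66.8 counts against 167, 99.9 and 109, and its OR-scale value was 1.61 ± 0.27 (adjusted p = 1.49e-06). Olfr370 had the OR-scale value 1.81 ± 0.22 (adjusted p = 2.9e-09), close to those of the chromosome 2 receptors with the nearest numbers.

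In the distal range the oORs lay mostly at the proximal end. From Olfr1275 to Olfr1289, 9 of the 14 tested receptors were oORs, none was a uOR, and the median was 1.30. From Olfr1290 to Olfr1303, 4 of 9 were oORs and 2 were uORs, with a median of 0.01, and from Olfr1305 to Olfr1317, 3 of 12 were oORs and none was a uOR, with a median of 0.15. These 3 stretches were set after the values were seen, and no test was made between them. Over 53 pairs of map neighbours with at least 10 counts on average, the OR-scale values of the 2 neighbours had a Pearson correlation of 0.17 and a Spearman correlation of 0.19, with each inner gene used in 2 pairs.

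Olfr1289 (chr2:111480819-111484615, plus strand) had the highest OR-scale value of the distal receptors. It had 32.9, 26.6 and 17.9 normalised counts in wild-type and 59.1, 72.7 and 46.4 in RTP1,2DKO mice, a change of 2.17 ± 0.38 (adjusted p = 2.81e-06), and no intact OR was more than 67.1% identical to it in coding sequence. Its neighbour Olfr1288 had 52.8, 37.2 and 48.5 counts against 93.8, 85.5 and 72.5, a change of 1.82 ± 0.31 (adjusted p = 1.77e-06). In both receptors the groups did not overlap on either scale. The next member on the map, Olfr1290, was a uOR (−1.41 ± 0.29, adjusted p = 5.02e-05), so the largest oOR value and a uOR of the distal range were adjacent. Olfr1297 (1.92 ± 0.23, adjusted p = 1.57e-09), Olfr1280 (1.80 ± 0.35, adjusted p = 2.31e-05) and Olfr1303 (1.74 ± 0.23, adjusted p = 1.88e-08) were the other distal oORs of greatest change. Smaller distal oOR values included Olfr1283 (1.67), Olfr1295 (1.57), Olfr1310 (0.94) and Olfr1317 (1.68). The proximal oORs not yet given were Olfr339 (1.76 ± 0.22, adjusted p = 7.03e-09) and Olfr342 (0.65), besides Olfr340, which is described below. The counts of Olfr1280 overlapped on the all-gene scale, with 35.0, 53.3 and 25.4 in wild-type and 86.2, 33.1 and 84.2 in RTP1,2DKO mice.

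**Figure D3:**
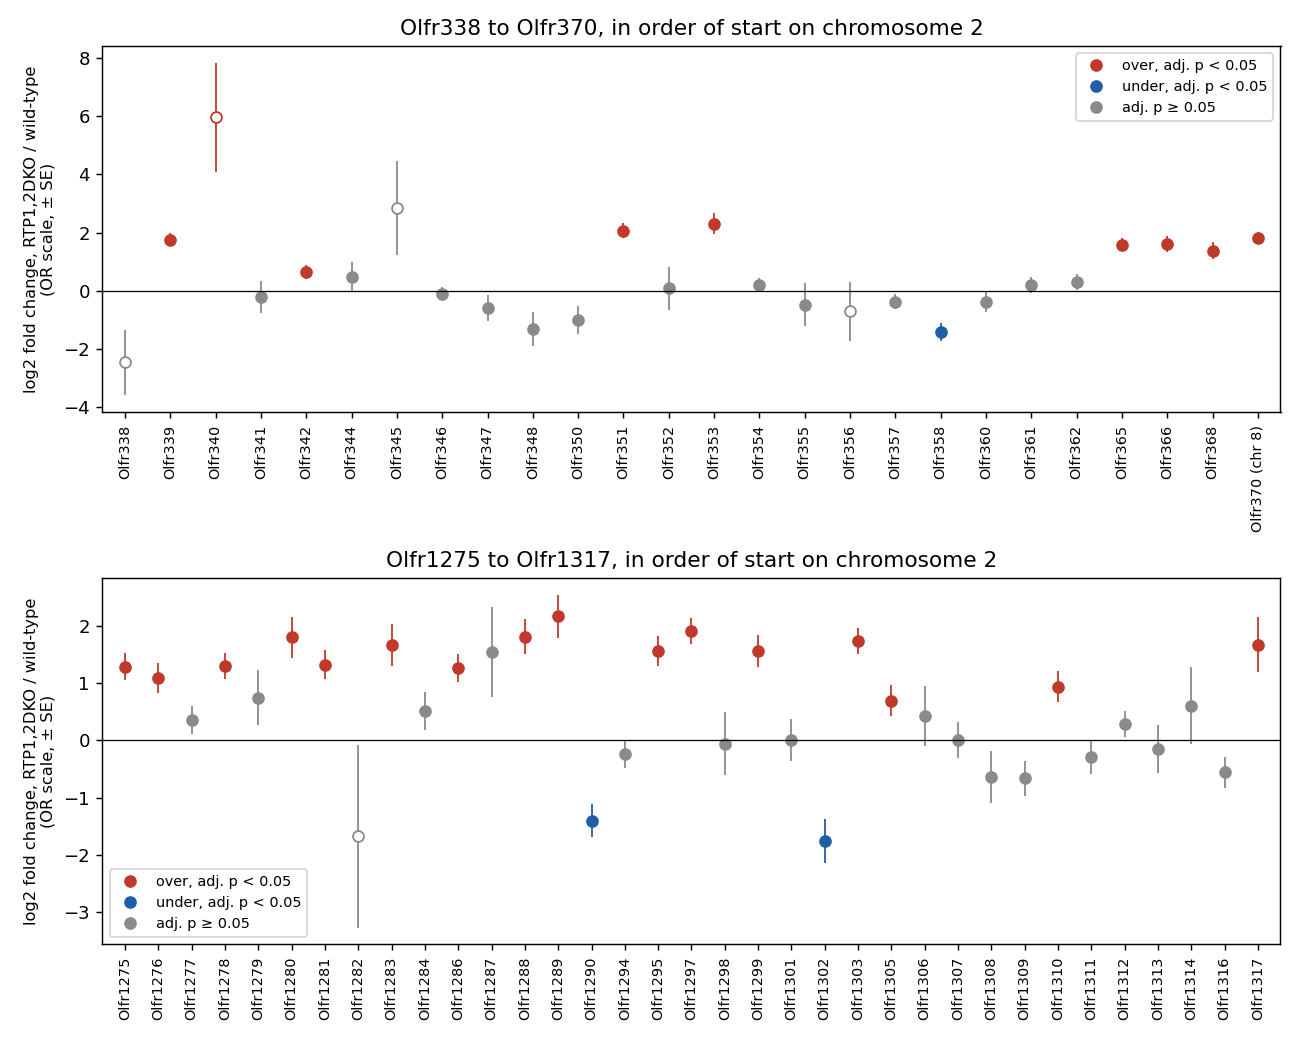
Log2 fold change (RTP1,2DKO over wild-type, OR scale, ± SE) of the 26 proximal and 35 tested distal receptors in the order of their starts on chromosome 2, with Olfr370 of chromosome 8 placed last in the upper panel. Red marks the 25 oORs, blue the 3 uORs and grey the others, and open symbols are the 5 receptors with a mean under 10 counts. Red points fill most of the left side of the lower panel and the right end of the upper panel.

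Paralogs were then compared with each other. Linking members with at least 80% coding identity gave 8 groups with 42 members, and 19 members stood alone. In some groups all receptors had the same call on the OR scale. All 3 receptors of the Olfr1275 group (Olfr1275, Olfr1276 and Olfr1278) were oORs, with values of 1.09 to 1.31, and 0 of the 7 receptors of the Olfr1306 group (Olfr1306, Olfr1307, Olfr1308, Olfr1312, Olfr1313, Olfr1314 and Olfr1316) were called, with values of −0.64 to 0.61. Neither receptor of the Olfr1279 group (Olfr1279 and Olfr1284, 0.75 and 0.51) was called. Olfr1278 stayed an oOR with the summed intact OR count as size factor. Olfr1275 and Olfr1276 then did not pass (adjusted p = 0.0709 and 0.326). Olfr1307, Olfr1308, Olfr1313 and Olfr1316 then became uORs (adjusted p = 0.0272, 0.00509, 0.0455 and 5.48e-05). On the all-gene scale none of the Olfr1275 group passed, and Olfr1316 fell. In the Olfr1280 group, 4 of 6 were oORs. The others were Olfr1287 and Olfr1282, for which only 50.9% and 32.4% of 31-base words were unique among all annotated transcripts, so that reads may have been split among copies. The same limit holds for the 4 oORs. Olfr1280, Olfr1281, Olfr1283 and Olfr1286 had 93.3%, 84.0%, 63.7% and 83.4% unique words, and Olfr1283 shares 96.7% coding identity with Olfr1287. Among all members, 27 had at least 95% unique words, and these held 12 oORs and 1 uOR. Olfr365, Olfr1303, Olfr1289 and Olfr1290, described above, had 75.7%, 76.1%, 80.5% and 81.5%. The oOR Olfr1317, without a link to another member, had 72.8%. It shares 96.2% coding identity with Olfr1318, which lies outside the number range. How reads were split between these 2 receptors was not tested.

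Other groups were mixed. The Olfr338 group, the largest with 11 receptors, held 3 oORs (Olfr339, Olfr340 and Olfr342) and 8 uncalled receptors. The Olfr358 group held 1 uOR and the uncalled Olfr360 and Olfr361 (−0.39 ± 0.34 and 0.20 ± 0.28). The Olfr1290 group held 3 oORs, 2 uORs and 3 uncalled receptors, with values of −1.76 to 1.92. Within it, Olfr1299 had 68.6, 58.3 and 62.9 normalised counts in wild-type and 107, 87.0 and 94.1 in RTP1,2DKO mice, and its OR-scale value was 1.56 ± 0.28 (adjusted p = 5.46e-06). Olfr1302, whose counts are given above and which shares 86.4% of its coding sequence with Olfr1299, was a uOR (−1.76 ± 0.39, adjusted p = 0.000124). Olfr1297, an oOR, and Olfr1298 (−0.06 ± 0.55), which are adjacent members with 91.9% coding identity, differed in call as well. Olfr1298 had 17.7, 62.4 and 16.5 normalised counts in wild-type and 16.9, 13.1 and 15.8 in RTP1,2DKO mice. Wild-type mouse 2 stood apart from all the others, so this contrast is uncertain. Olfr1301, which lies between Olfr1299 and Olfr1302 on the map, had the value 0.01 ± 0.38. Olfr1299 and Olfr1302 had 75.5% and 95.5% unique words, and Olfr1299 is 1 of 5 members that overlap another annotated gene (Gm44840, on the same strand), whose reads cannot be told apart here. On the all-gene scale a contrast was seen between Olfr339, which rose, and Olfr346, which fell (−1.03 ± 0.23, adjusted p = 0.0207). The counts of Olfr346 went from 391, 323 and 364 to 244, 134 and 150. The calls of Olfr339 and Olfr346 passed in 1 and 3 of the 6 fits that left out 1 mouse. Olfr346 was named after its values were seen, and its OR-scale value of −0.10 ± 0.23 did not pass. In the most alike pair, Olfr1286 had 296, 222 and 232 counts against 362, 178 and 394 and was an oOR (1.27 ± 0.24, adjusted p = 1.84e-05), while Olfr1282 had 2.93, 5.79 and 3.99 counts against 1.61, 0 and 0 and was not called. With so few words of its own, how many of the reads of Olfr1286 came from Olfr1282 was not tested.

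**Figure D4:**
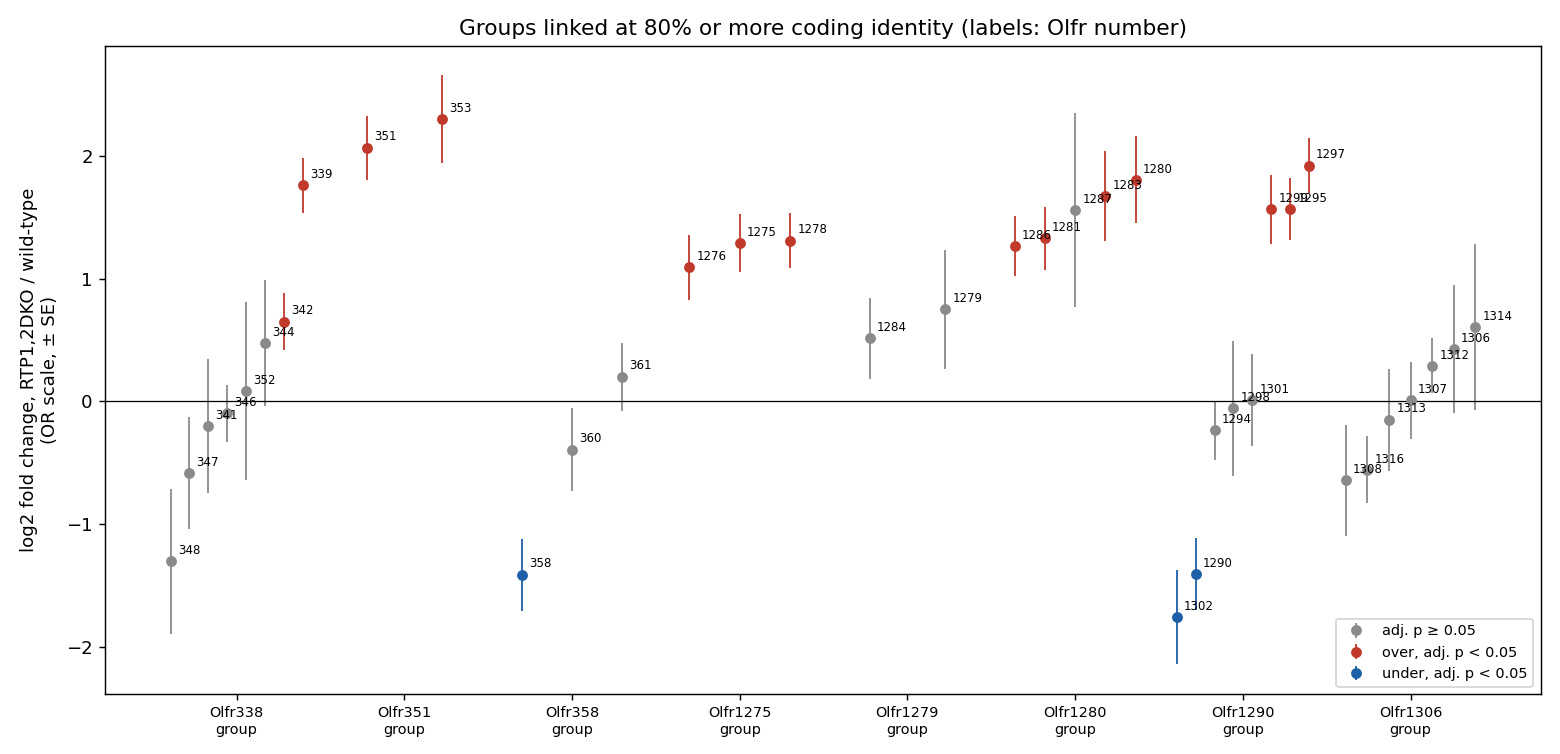
Log2 fold change (OR scale, ± SE) of receptors in the 8 groups linked at 80% or more coding identity, for members with at least 10 counts on average, labelled by Olfr number and coloured by call. The Olfr1275 group lies within 1.09 to 1.31, while the Olfr1290 group runs from −1.76 to 1.92.

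For 2 receptors of the mixed Olfr1290 group the start site behind the RefSeq promoter window (250 bases before to 50 after the start, GRCm38.p6) lay within 50 bases of the GENCODE gene start (14 bases in Olfr1290 and 34 in Olfr1299), and these windows are shown because one receptor was a uOR and the other an oOR. Of the 62 members 55 had such a window in RefSeq, and in 50 of the 56 windows the listed start was the first coding base, so the others are not shown. Capitals mark TAATTA, a homeodomain-type motif that reads the same on both strands and that is known from OR promoters, where LHX2 and EMX2 act. The window of Olfr1290 is chr2:111493766-111494065, minus strand, and that of Olfr1299 is chr2:111661203-111661502, plus strand.
Olfr1290: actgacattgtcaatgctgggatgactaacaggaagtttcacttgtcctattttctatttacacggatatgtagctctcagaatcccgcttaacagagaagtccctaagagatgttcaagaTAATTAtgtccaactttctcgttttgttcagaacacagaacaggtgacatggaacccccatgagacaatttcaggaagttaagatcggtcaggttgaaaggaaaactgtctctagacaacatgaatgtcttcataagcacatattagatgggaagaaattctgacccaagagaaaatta
Olfr1299: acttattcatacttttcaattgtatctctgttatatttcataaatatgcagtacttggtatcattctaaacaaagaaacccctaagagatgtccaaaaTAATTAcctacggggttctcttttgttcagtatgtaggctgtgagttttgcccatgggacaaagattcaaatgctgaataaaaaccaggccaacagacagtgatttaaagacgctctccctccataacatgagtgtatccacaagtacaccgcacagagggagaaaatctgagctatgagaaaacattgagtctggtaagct
Each window held 1 TAATTA, starting 129 bases before the RefSeq start in Olfr1290 and 152 before it in Olfr1299, and 5.29% of all 32851 RefSeq windows hold one. Shortly before it both shared a run of 13 bases, ccctaagagatgt. Aligned end to end, the 2 windows were 59.2% identical. Neither held TATAAA, the TATA box, on either strand, which 13.6% of all windows hold. Of the 56 member windows, most of them placed at a coding start, 14 held TAATTA and 16 held TATAAA.

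Wild-type levels of the members were compared per length, as FPKM. They ran from 0 to 23.5, with a median of 2.10 (1.46 proximal, 2.34 distal), and the intact ORs had a median of 2.70. Olfr1305 stood first at 23.5 ± 3.31 FPKM (SD, n = 3) and Olfr360, the highest proximal member on chromosome 2, at 14.5 ± 4.24. Both rest largely on a transcript of 508 and 528 bases with an effective length of 80.6 and 86.6 bases, and without it they came to 1.43 ± 0.22 and 3.81 ± 0.28. This alternative was chosen after seeing the data. The others among the 3 highest of each range were Olfr370 (15.02, 18.7 and 14.1 FPKM), Olfr1281 (16.8, 11.3 and 12.6 FPKM), Olfr1297 (10.7, 15.01 and 7.51 FPKM) and Olfr365 (8.40, 10.8 and 4.48 FPKM), whose values overlapped from each to the next. Of 61 steps down the order of means, 59 were between receptors whose wild-type values overlapped, and a separation was seen only below Olfr1305 and below Olfr1282, which was followed by Olfr345 and Olfr340. Over 56 members with at least 10 counts on average, log2 FPKM in wild-type and OR-scale value had a Spearman correlation of 0.06 and a Pearson correlation of 0.05, in the same libraries.

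Olfr1281 (213, 129 and 171 normalised counts against 307, 132 and 238) was an oOR at 1.33 ± 0.26 (adjusted p = 1.98e-05), and Olfr1305 (126, 125 and 110 against 123, 106 and 72.9) at 0.70 ± 0.27 (adjusted p = 0.0228). In both, the counts overlapped on the all-gene scale, where neither passed. The oOR call of Olfr1305 held in 3 of the 6 fits that left out 1 mouse.

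A member without any count in one group was Olfr340, which had 0 counts in the 3 wild-type mice and 1.01 to 8.69 estimated counts in the RTP1,2DKO mice. A limit of 3 counts per library was taken as what a count of 0 allows. The RTP1,2DKO mean was 1.74 times that limit on the all-gene scale, where the receptor did not pass (adjusted p = 0.26). On the OR scale the mean was 3.24 times the limit, and the receptor passed (adjusted p = 0.00578). RTP1,2DKO mouse 2 lay below the limit, with 0.88 normalised counts against 3.09 on the all-gene scale. Olfr340 shares sequence with Olfr345 (90.5% coding identity, 71.4% unique words). Without RTP1,2DKO replicate 1 its OR-scale adjusted p was 0.05003 and it no longer passed. With the wild-type value of Olfr340 set at the limit, its fold change still lay above the member median on either scale. The medians of −0.44 and 0.47 could therefore not move. Another 4 members had a mean under 10 counts (Olfr338, Olfr345, Olfr356 and Olfr1282), and none of them passed on either scale.

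Counts were then summed over the receptors of each range, Olfr1285 included. The proximal numbers had 3851, 4011 and 3257 normalised counts in the wild-type and 4530, 3563 and 3582 in the RTP1,2DKO mice, and the distal numbers had 4499, 4935 and 4073 against 4774, 3876 and 4581. The groups overlapped in both sums. Shares were then taken of the summed count of intact ORs, over the intact members on chromosome 2 (25 proximal and 35 distal, without Olfr370 and Olfr1285). The proximal receptors took 0.97% ± 0.07 (SD, n = 3) in wild-type and 1.04% ± 0.15 in RTP1,2DKO mice, and the distal receptors 1.348% ± 0.040 and 1.497% ± 0.054. The groups overlapped in the proximal share and did not in the distal share. With Olfr370 counted in, the proximal values were 1.12% ± 0.07 and 1.35% ± 0.16. These member sets were chosen after seeing the data. The most abundant receptor made up more of each range in every RTP1,2DKO mouse than in any wild-type mouse. Olfr365 took 19.2 to 20.0% of the proximal sum in wild-type and 25.9 to 30.5% in RTP1,2DKO mice, and Olfr1297 took 9.22 to 12.3% of the distal sum against 17.7 to 26.0%. Without them the shares were 0.76% ± 0.05 against 0.65% ± 0.09 for the proximal and 1.21% ± 0.03 against 1.19% ± 0.10 for the distal receptors. Both means were then lower rather than higher in RTP1,2DKO mice, and the groups overlapped in both ranges. With Olfr370 counted in and Olfr365 left out, the proximal shares were 0.90% ± 0.05 and 0.96% ± 0.11.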

How the data were processed

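The authors had assigned reads with kallisto to UCSC mouse transcripts with extended OR annotations (genome build mm10 per the labels; version not given in the sources used here), and deposited estimated counts and TPM per transcript, 1 table per mouse. TPM was not used. Estimated counts were summed per gene and rounded for the tests. FPKM was computed from estimated counts, effective lengths and library totals. The test was edgeR 4.0.16 (R 4.3.3), a quasi-likelihood F-test with DESeq median-of-ratios size factors and Benjamini-Hochberg adjustment at 0.05, on genes counted in 1 or more mice, over all genes and again over intact ORs. DESeq2 1.42.0, TMM, filtering, the edgeR exact test, total-count scaling, a replicate block and leaving out each mouse were alternatives. On simulated data of 18156 genes with log2 changes of 2, 90.5% of changed genes were recovered. Of the genes called there, 9.5% were false, against a set level of 0.05. Over 960 ORs 96.5% were recovered, and 2.03% of the calls were false. Smaller changes were not simulated. Rises and falls were drawn with equal probability and the size factors were given to the test as known, so the simulation cannot bear on the choice of scaling. Depth was 31125410 to 41636996 counts per library, which leaves receptors under 10 counts poorly measured.

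Same-numbered mice, numbered in the titles and described in the methods as sex-matched littermates, had correlated deviations (0.14, 0.18 and 0.10 over 18133 genes). Mice with different numbers had correlations of −0.22 to 0.09, the highest between wild-type 1 and RTP1,2DKO 3. These values are small and barely single out the pair numbered 3. The numbers were taken to pair the mice only in the fit with the replicate block. All other p-values come from fits on genotype alone, without pairing. Coding identity and 31-base words came from GENCODE M21 (GRCm38), whose receptor models may differ from the extended ones. Nucleotide identity stands in for the protein identity first planned. Named receptors were the 5 largest rises and falls per range on the OR scale (adjusted p under 0.05, mean of at least 10 counts, groups apart), the 3 highest in wild-type FPKM, those that rose on the all-gene scale, those without counts in a group, the most alike pair and the most alike pair with opposite calls, and any off chromosome 2. Other receptors are named as members of a counted list or were chosen after their values were seen. The members and lists were chosen with earlier results of these data known.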

Additional observations from a re-analysis of the deposited data

How the results depend on the processing

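On the all-gene scale, the 4 members that rose became 7 with DESeq2 and 7 with the edgeR exact test, and 2 to 5 when 1 mouse was left out (2 without RTP1,2DKO replicate 1 and 2 without RTP1,2DKO replicate 3). The fallen members numbered 7 to 10 with 1 mouse left out. Restricting the list to the 27 members with at least 95% unique words left 5 that fell and 2 that rose there, and 12 oORs and 1 uOR on the OR scale, through fewer members. On the OR scale, the 3 uORs became 5 with TMM, 5 with the exact test, 5 with the replicate block, 18 with the total count on intact ORs and 15 without its 3 most abundant ORs, and 3 to 7 with 1 mouse left out (7 without RTP1,2DKO replicate 3). The 25 oORs became 16 with the total count and 23 to 27 with 1 mouse left out. The log2 fold change of Olfr1305 turned to −0.0679 with the total count. For all members of a range, leaving out the most abundant moved the log2 ratio (RTP1,2DKO over wild-type) of the share of intact OR counts from 0.26 to 0.0878 (proximal) and from 0.16 to −0.0166 (distal, Olfr1285 in the numerator), and that of the sum from 0.0704 to −0.10 and from −0.0297 to −0.20. With only intact members on chromosome 2, a choice made after seeing the data, the proximal share ratio was 0.0912 and the sum ratio −0.0937, and without Olfr365 they were −0.21 and −0.39. The distal share ratio was 0.15 and the sum ratio −0.0336, and without Olfr1297 they were −0.0240 and −0.20. The cause of the changes between tests was not tested. Of the calls with all mice, 8 of 14 on the all-gene scale and 25 of 28 on the OR scale held in all 6 fits with 1 mouse left out. Beyond the blocked values given with the results and the all-gene calls of Olfr350, Olfr354 and Olfr1308, which passed with the replicate block, pairing changed no other call of a member. The low depth of receptors such as Olfr340 and Olfr1282 limits what can be said of them.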
